A study of Rattus norvegicus with 10 samples.

Results

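A set of 10 genes of the transforming growth factor beta (TGF-beta) pathway were examined in hippocampal messenger RNA of rats with and without epilepsy. They were the ligands Tgfb1, Tgfb2 and Tgfb3, the receptors Tgfbr1 and Tgfbr2, the signal transducers Smad2, Smad3 and Smad4, the inhibitor Smad7 and the latency protein Ltbp1. The genes were chosen by name, with earlier results of these data known. They were taken as the rows of the count matrix whose RefSeq identifier belongs to one of these symbols. Each of the 10 symbols had 1 row, so that 10 of 32041 rows (features) were members, and all 10 were among the 22447 features with enough counts to be tested. Overlap with another annotated gene was found for 3 of them, a small nucleolar RNA gene for Tgfb2, a pseudogene for Smad2 and a long non-coding RNA gene for Ltbp1, and whether strand was used in counting was not stated.

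The rats were male Sprague-Dawley animals, an outbred strain, of 290 to 320 g. The 5 sham operated rats (rats 1 to 5) carried electrodes in the left lateral amygdala and received no current. The 5 rats with amygdala stimulation (rats 6 to 10) received pulses of 400 µA at 60 Hz for 30 min, or longer where needed, through the same kind of electrode, which evoked status epilepticus, a prolonged seizure that diazepam stopped after 1.5 to 2 h, and all were reported to have later spontaneous seizures. Tissue of the left hippocampus with the CA3 field and dentate gyrus was taken 3 months after status epilepticus, and the sham rats were matched in time. Each library came from 1 rat, and the methods of the study count 1 stimulated animal fewer for this assay than the labels do without naming it, so the comparison was also made without each rat in turn.

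TGF-beta is secreted as an inactive complex in which latent TGF-beta binding proteins such as the product of Ltbp1 tether the ligand to the extracellular matrix until proteases or integrins release it. The free ligand binds the type II receptor Tgfbr2, which activates the type I receptor Tgfbr1. The active receptor phosphorylates Smad2 and Smad3, which enter the nucleus with Smad4 and regulate transcription, and Smad7 is induced as a feedback inhibitor that blocks the receptor. In the brain the pathway is known for its part in the response of astrocytes to serum albumin after opening of the blood-brain barrier, in scar formation and in the maintenance of microglia. In a piece of tissue, fewer cells of a type and less RNA per cell cannot be told apart.

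Aligned counts ranged from 13552309 to 24086059 in sham and from 15586870 to 21642792 in stimulated rats. The share of reads that the authors could not align was 32.8 to 37.1% in sham rats. In stimulated rats 6 to 10 it was 35.6, 32.01, 41.4, 42.9 and 45.1%, so that rats 8, 9 and 10 were above every sham rat. Ribosomal RNA genes took 1.82 to 12.2% of aligned counts in sham and 3.03 to 5.64% in stimulated rats. The part of these shares in the levels of the 10 genes was not tested. Markers of the labelled tissue were present in all rats, with summed levels for 8 tested dentate granule and CA3 genes of 811 to 924 counts-per-million (CPM) in sham and 784 to 904 CPM in stimulated rats. Fos, a gene transcribed within minutes of neuronal activity, had levels of 106, 50.3 and 61.7 CPM in rats 7, 9 and 10, of 5.61 and 5.24 CPM in rats 6 and 8, and of 3.26 to 5.32 CPM in the sham group.

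Of the 10 genes, 0 passed the test of stimulated against sham rats at an adjusted p-value under 0.05 (edgeR quasi-likelihood test, adjusted over all features), a threshold that 0% of the 22447 features passed. DESeq2 and the exact and likelihood ratio tests of edgeR also gave 0 of the 10 genes, with 31, 90 and 119 of all features. At an unadjusted p-value under 0.05, 2 of the 10 genes were higher in stimulated rats, Tgfb1 and Smad7, and 0 were lower. The background for these counts was 9.86% of all features in either direction, 6.7% higher and 3.16% lower. The median log2 fold change of the 10 genes was 0.04, beside 0.01 over all tested features, and 6 of the 10 values were above 0, beside 52.2% of features. The groups overlapped for every one of the 10 genes, and 1.29% of all features had groups that did not overlap.

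**Figure D1:**
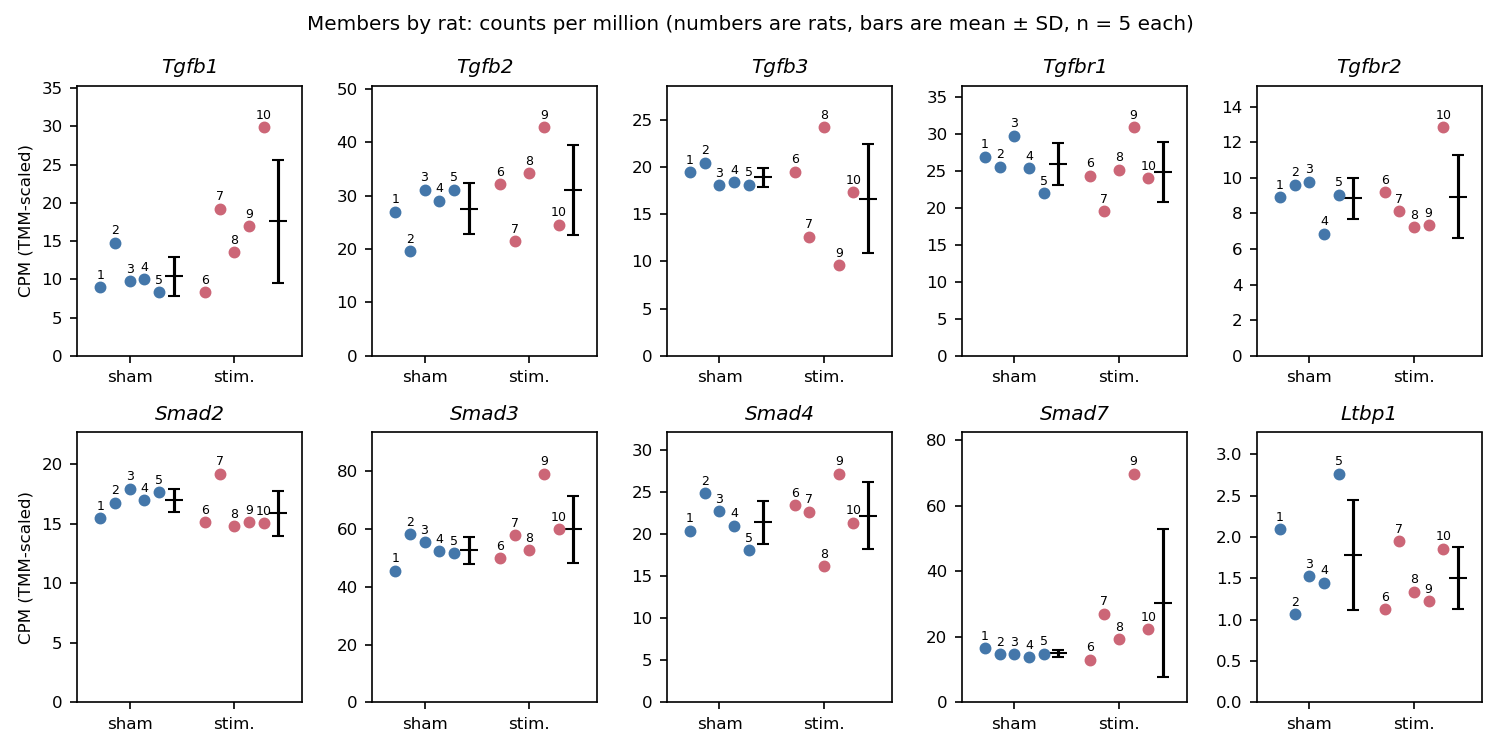
Levels in CPM of each gene (vertical axis, from 0) in the 5 sham and 5 stimulated rats. Points are rats, numbered, and bars give the mean ± SD of a group. Smad7 lay between 13.9 and 16.6 CPM in sham rats and reached 69.8 CPM in stimulated rat 9, and Tgfb1 reached 29.9 CPM in stimulated rat 10.

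The promoters of Smad7 and Tgfb1 are shown because these genes had the lowest p-values of the family. The sequences are those of RefSeq on the GRCr8 assembly, from 250 bases before to 50 bases after the annotated start, and were used for their letters alone. Smad7 lies on the plus strand at chr18:71263258-71263557 and Tgfb1 on the plus strand at chr1:90324062-90324361. Capitals mark matches to the motifs that were searched on both strands.

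Smad7 promoter: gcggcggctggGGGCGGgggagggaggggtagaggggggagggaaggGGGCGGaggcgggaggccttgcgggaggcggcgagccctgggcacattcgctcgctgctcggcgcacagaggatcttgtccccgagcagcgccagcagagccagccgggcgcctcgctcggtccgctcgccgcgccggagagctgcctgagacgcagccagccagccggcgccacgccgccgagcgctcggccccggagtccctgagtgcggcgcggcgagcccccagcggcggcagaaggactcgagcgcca

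Tgfb1 promoter: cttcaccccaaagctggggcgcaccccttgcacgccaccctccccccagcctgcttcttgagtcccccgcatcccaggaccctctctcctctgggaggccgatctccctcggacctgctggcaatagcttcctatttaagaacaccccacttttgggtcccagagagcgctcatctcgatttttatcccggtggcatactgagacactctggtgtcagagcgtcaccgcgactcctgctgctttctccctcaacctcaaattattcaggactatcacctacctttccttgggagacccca

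The motifs were the AP-1 site TGAGTCA, bound by Fos and Jun proteins, the cyclic AMP element TGACGTCA, the Smad box CAGACA, the palindromic Smad element GTCTAGAC and the GC box GGGCGG. None of these motifs overlapped another in either sequence. The Smad7 promoter held 2 GC boxes, which began 239 and 203 bases before the start, and no match to the other motifs. The Tgfb1 promoter held no match to any of the 5. A GC box was found in the promoters of 5 of the 10 genes and in 33.1% of 33469 promoters, and the cyclic AMP element in that of Ltbp1 alone and in 1.83% of promoters. The AP-1 site, the Smad box and the Smad palindrome occurred in 4.63%, 21.1% and 0.197% of promoters and in 0 of the 10 genes. The GC content was 77.7% for Smad7 and 57.7% for Tgfb1, with a median of 51.7% over all promoters.

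Among the ligands, Tgfb1, the isoform most associated with injury and inflammation, was counted at 9.02, 14.8, 9.74, 10.05 and 8.34 CPM in sham rats 1 to 5 and at 8.33, 19.2, 13.5, 17 and 29.9 CPM in stimulated rats 6 to 10. Stimulated rats 7, 9 and 10 were above every sham rat, stimulated rat 8 was above 4 of the 5 sham rats, and stimulated rat 6 was below all of them. The group means were 10.4 ± 2.56 and 17.6 ± 8.004 CPM (SD, n = 5 each), and the log2 fold change was 0.77 (SE 0.274, 95% interval 0.18 to 1.35, edgeR unadjusted p = 0.0146, adjusted p = 0.415). A log2 fold change above this one was found for 3.88% of tested features, and 14.8% of features had at least 3 stimulated rats above all sham rats. The value depended on stimulated rat 10, without which the log2 fold change was 0.49 (SE 0.233, edgeR unadjusted p = 0.056).

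Tgfb2, an isoform expressed by neurons and astrocytes, was counted at 27, 19.6, 31.1, 29.1 and 31.1 CPM in sham rats and at 32.1, 21.5, 34.2, 42.8 and 24.6 CPM in stimulated rats. Stimulated rats 6, 8 and 9 were above all sham rats, whereas rats 7 and 10 lay within their range. The log2 fold change was 0.17 (SE 0.18, 95% interval -0.22 to 0.55, edgeR adjusted p = 0.79).

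Tgfb3, the remaining isoform, was counted within a narrow range in sham rats, at 19.4, 20.5, 18.1, 18.4 and 18.1 CPM, and at 19.5, 12.6, 24.2, 9.59 and 17.3 CPM in stimulated rats. Stimulated rats 7, 9 and 10 were below every sham rat and rat 8 was above them. With these differences of opposite sign, the log2 fold change was -0.18 (SE 0.198, 95% interval -0.61 to 0.24, edgeR adjusted p = 0.79). The SD of log2 CPM was 0.0777 in sham and 0.524 in stimulated rats, a ratio of 6.74 that 1.42% of all features reached. Rats 7, 9 and 10, in which Tgfb3 was below the sham range, were those in which Tgfb1 was above it.

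Of the receptors, Tgfbr1, the signalling kinase, was counted at 26.9, 25.6, 29.8, 25.4 and 21.96 CPM in sham rats and at 24.3, 19.6, 25.2, 30.9 and 24.05 CPM in stimulated rats. Stimulated rat 7 was just below and rat 9 just above the sham range. The log2 fold change was -0.06 (SE 0.126, 95% interval -0.33 to 0.21, edgeR adjusted p = 0.903). Tgfbr2, the receptor that binds the ligand, was counted at 8.9, 9.62, 9.8, 6.86 and 9.05 CPM in sham rats and at 9.19, 8.13, 7.22, 7.35 and 12.8 CPM in stimulated rats. Stimulated rat 10, the rat with the highest level of Tgfb1, was the single rat outside the sham range, and the log2 fold change was 0.02 (SE 0.176, 95% interval -0.36 to 0.40, edgeR adjusted p = 0.981).

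**Figure D2:**
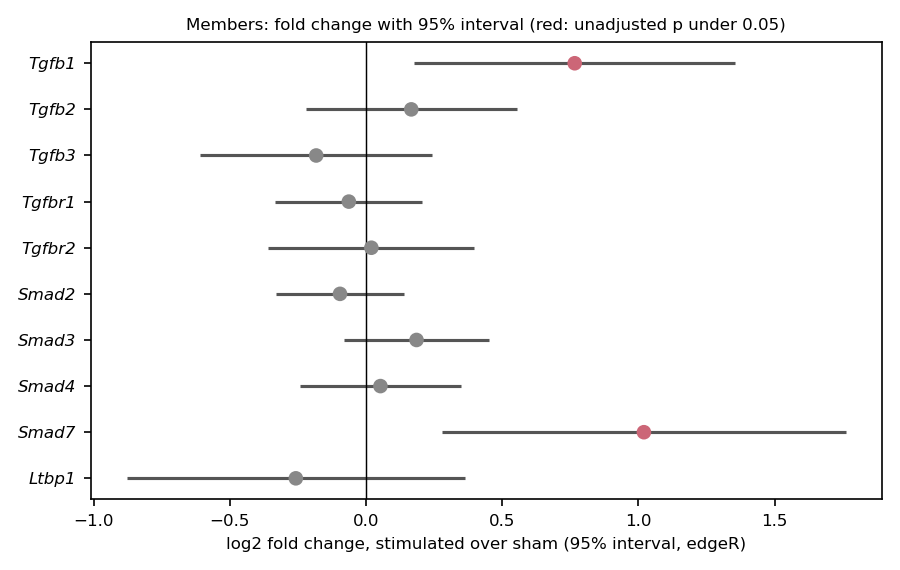
Log2 fold change of each gene, stimulated over sham rats (horizontal axis), with the 95% interval from edgeR. Points in red had an unadjusted p-value under 0.05, and these were Tgfb1 at 0.77 and Smad7 at 1.02, while the intervals of the other 8 genes included 0.

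Of the transducers, Smad2 was counted at 15.5, 16.8, 17.96, 17 and 17.6 CPM in sham rats and at 15.2, 19.2, 14.8, 15.1 and 15.1 CPM in stimulated rats. Stimulated rats 6, 8, 9 and 10 were below all sham rats, by little, and rat 7 was above them. The log2 fold change of Smad2 was -0.10 (SE 0.11, 95% interval -0.33 to 0.14, edgeR adjusted p = 0.806).

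Smad3, the other receptor-activated transducer, was counted at 45.7, 58.3, 55.4, 52.3 and 51.7 CPM in sham rats and at 49.9, 57.8, 52.6, 79.2 and 59.9 CPM in stimulated rats. Stimulated rat 9 stood above the sham range and rat 10 just above it. The log2 fold change was 0.19 (SE 0.124, 95% interval -0.08 to 0.45, edgeR adjusted p = 0.637).

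Smad4, the common partner, was counted at 20.4, 24.8, 22.7, 20.96 and 18.1 CPM in sham rats and at 23.4, 22.6, 16.2, 27.1 and 21.3 CPM in stimulated rats. Stimulated rat 8 was below and rat 9 above the sham range, and the log2 fold change was 0.05 (SE 0.137, 95% interval -0.24 to 0.35, edgeR adjusted p = 0.925).

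The inhibitor Smad7 had the highest log2 fold change of the 10 genes. It was counted at 16.6, 14.7, 14.8, 13.9 and 14.8 CPM in sham rats and at 13.1, 27.1, 19.3, 69.8 and 22.4 CPM in stimulated rats. Stimulated rats 7, 8, 9 and 10 were above every sham rat, a pattern that at least 4 stimulated rats showed for 4.34% of all features, and stimulated rat 6 was below every sham rat. The group means were 14.98 ± 1.01 and 30.4 ± 22.6 CPM (SD, n = 5 each), and its log2 fold change was 1.02 (SE 0.345, 95% interval 0.28 to 1.76, edgeR unadjusted p = 0.0106, adjusted p = 0.409). A higher log2 fold change was found for 2.25% of tested features. Much of the size came from stimulated rat 9, without which the log2 fold change was 0.45 (SE 0.174, edgeR unadjusted p = 0.022). The SD of log2 CPM was 0.094 in sham and 0.897 in stimulated rats, a ratio of 9.54 that 0.445% of all features reached.

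**Figure D3:**
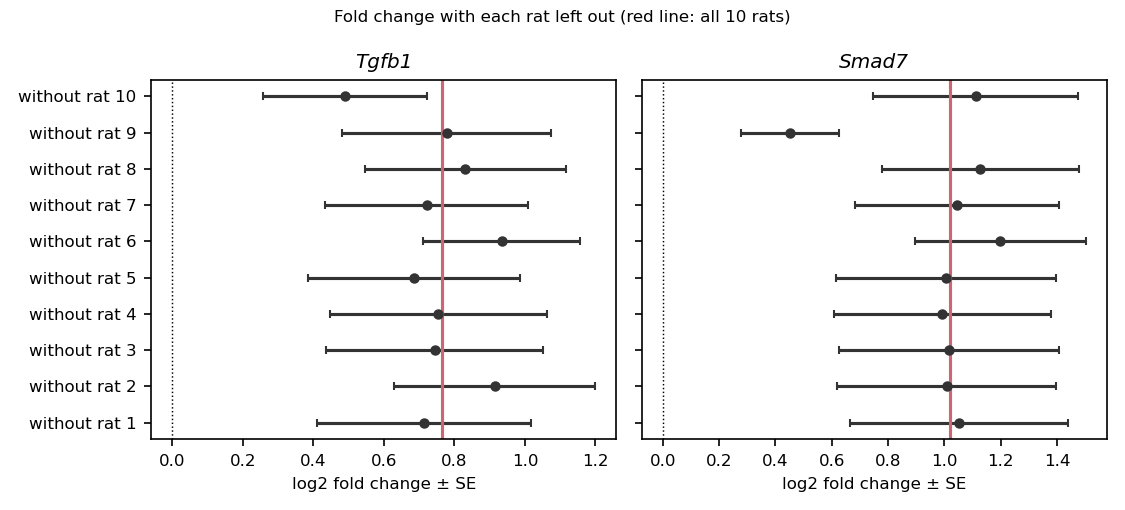
Log2 fold change (horizontal axis, with its SE) of Tgfb1 and Smad7 when each rat in turn was left out. The red line is the value from all 10 rats. The lowest values were 0.49 for Tgfb1 without rat 10 and 0.45 for Smad7 without rat 9, and all 20 values were above 0.

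Ltbp1, which anchors latent ligand in the matrix, was counted at a low depth of 14 to 66 reads per rat. Its levels were 2.09, 1.07, 1.52, 1.45 and 2.77 CPM in sham rats and 1.13, 1.95, 1.34, 1.22 and 1.86 CPM in stimulated rats. All stimulated rats lay within the sham range, and the log2 fold change was -0.26 (SE 0.289, 95% interval -0.88 to 0.36, edgeR adjusted p = 0.799). Levels of different genes were not ranked against one another, because no transcript lengths were used.

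Read by rat, the 10 genes were outside the sham range in 4 cases in stimulated rat 6, 5 in rat 7, 5 in rat 8, 8 in rat 9 and 6 in rat 10. The shares of all tested features outside that range were 30.2%, 55.6%, 35.3%, 49.2% and 49.7% in the same rats. Above that range were 1, 3, 3, 6 and 4 of the 10 genes, beside 16%, 28.8%, 17.7%, 25.6% and 25.6% of all features. In rat 9, the genes Tgfb1, Tgfb2, Tgfbr1, Smad3, Smad4 and Smad7 were above and Tgfb3 and Smad2 below the sham range. Rats 7 and 10, with Fos at 106 and 61.7 CPM beside 50.3 CPM in rat 9, had Smad7 at 27.1 and 22.4 CPM. Rat 8, whose Fos level was within the sham range, had Tgfb2, Tgfb3 and Smad7 above it. The SD of log2 CPM was larger in stimulated than in sham rats for 9 of the 10 genes, all except Ltbp1, with a median ratio of 1.78 beside 1.37 over all tested features.

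**Figure D4:**
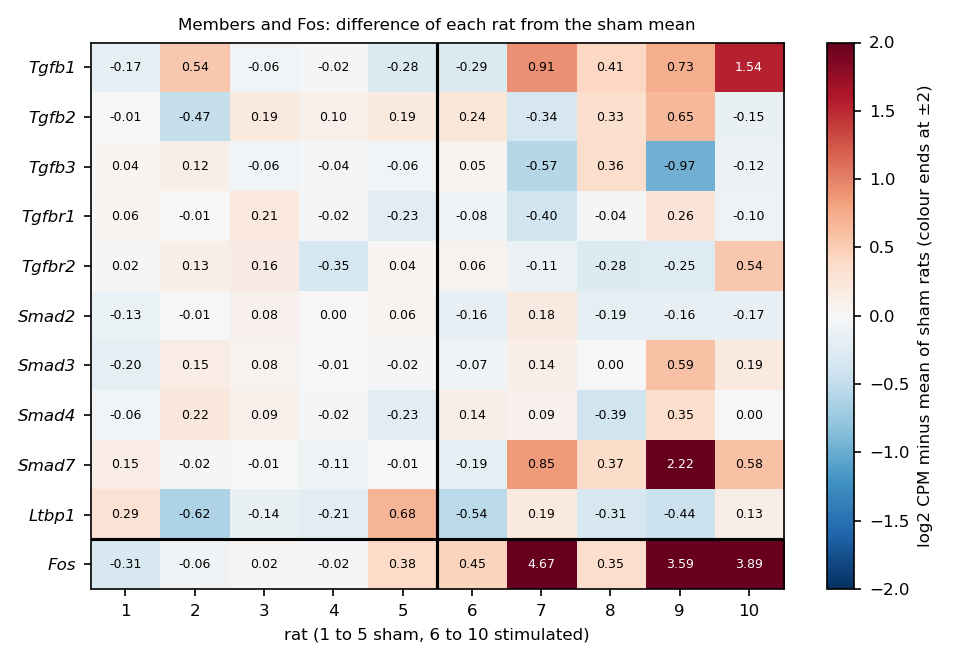
Difference of each rat from the mean of the sham rats in log2 CPM (colour and numbers) for the 10 genes and for Fos as a marker of recent activity, with the rats as columns and the genes as rows. The largest difference among the 10 genes was 2.22 for Smad7 in rat 9, and Tgfb3 in the same rat differed by -0.97.

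Cell type markers differed between the same rats. The summed level of 11 endothelial genes was 306 to 326 CPM after sham surgery and 335 to 590 CPM after stimulation, with the highest value in rat 10, in which Tgfb1 and Tgfbr2 were highest. The mean log2 CPM of these 11 genes was 4.09 to 4.22 in the sham group and 4.21 to 5.11 in rats 6 to 10. By that measure rat 7 was inside the sham range. The summed level of 9 astrocyte genes was 3570 to 4051 CPM after sham surgery and 3637 to 8868 CPM after stimulation. Most of that difference was in Gfap, a filament protein of reactive astrocytes, with 1327 to 1927 CPM in the sham group and 1326, 6469, 1375, 2079 and 5396 CPM in rats 6 to 10. The mean log2 CPM of the same 9 genes was 7.59 to 7.82 in the sham group and 7.65 to 7.998 in rats 6 to 10. By that measure rats 6, 7 and 8 were inside the sham range, and the median log2 fold change of these genes was 0.07. The 11 microglial genes summed to 471 to 571 CPM after sham surgery and to 504 to 734 CPM after stimulation. Mural cell and fibroblast genes, 13 in number, summed to 189 to 217 CPM after sham surgery and 182 to 276 CPM after stimulation, and 12 immediate early genes to 200.05 to 240 and 197 to 1752 CPM. The lists of 9 oligodendrocyte, 9 neuronal and 7 choroid plexus genes summed to 2759 to 3962, 5626 to 6361 and 5.83 to 21.3 CPM in sham and to 2233 to 3728, 5386 to 6199 and 9.9 to 36.6 CPM in stimulated rats. No tested marker had a group mean of 0. The part of these cells and of recent activity in the levels of the 10 genes was not tested.

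The genes with the most similar levels over the 10 rats were sought among 9678 features with a symbol and a mean of at least 5 CPM, by Pearson's r of log2 CPM. For Smad7 they were Serp1 (r = 0.988, Spearman's rho = 0.952), Vcl (r = 0.985, rho = 0.964) and Tram1 (r = 0.981, rho = 0.77), and for Tgfb1 they were Slc6a20a (r = 0.964, rho = 0.855), Tbc1d10b (r = 0.962, rho = 0.964) and Nbl1 (r = 0.957, rho = 0.976). For Tgfb3 they were Deaf1 (r = 0.982, rho = 0.83), Mb21d2 (r = 0.962, rho = 0.964) and Zbtb48 (r = 0.958, rho = 0.927). For the other 7 genes the highest r lay between 0.9 and 0.968. The 3 features with the highest r were Ahdc1, Vipr1 and Baiap2 for Smad3, Abca2, Fhip2b and Dnaaf9 for Tgfbr1, and Sap30bp, Metap1 and Puf60 for Smad2. They were Ptafr, Stox2 and Pcnx1 for Smad4, Ccni, Aspa and Aldh6a1 for Tgfb2, and Eola2, Bex3 and Gps2 for Ltbp1. These coefficients are a description over 10 rats, with each pair of genes read from the same libraries at the same depth, and carry no test.

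The rest of the pathway was read from lists of genes grouped by role, 86 tested genes in all with each counted once. The lists were chosen with earlier results of these data known. Of these, 0 passed at an adjusted p-value under 0.05 in the edgeR quasi-likelihood test. At an unadjusted p-value under 0.05, stimulated rats had 31 higher and 2 lower genes, with a background of 6.7% higher and 3.16% lower, and the median log2 fold change was 0.23. DESeq2 gave 4 genes at an adjusted p-value under 0.05 (Fn1, Ltbp2, Mmp9 and Plat), beside 31 of all 22447 features. The likelihood ratio and exact tests of edgeR gave 7 each, with Cdkn1a, Klf10 and Timp1 added, beside 119 and 90 of all features. Of the 86 genes, 18, 47, 26, 43 and 45 were above the sham range in rats 6 to 10, and of the 23 TGF-beta induced genes 3, 17, 8, 14 and 18, beside 16%, 28.8%, 17.7%, 25.6% and 25.6% of all features. For both sets, as over all features, the counts were highest in rats 7, 9 and 10, the rats with Fos above 50 CPM. The part of recent activity in this was not tested.

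**Figure D5:**
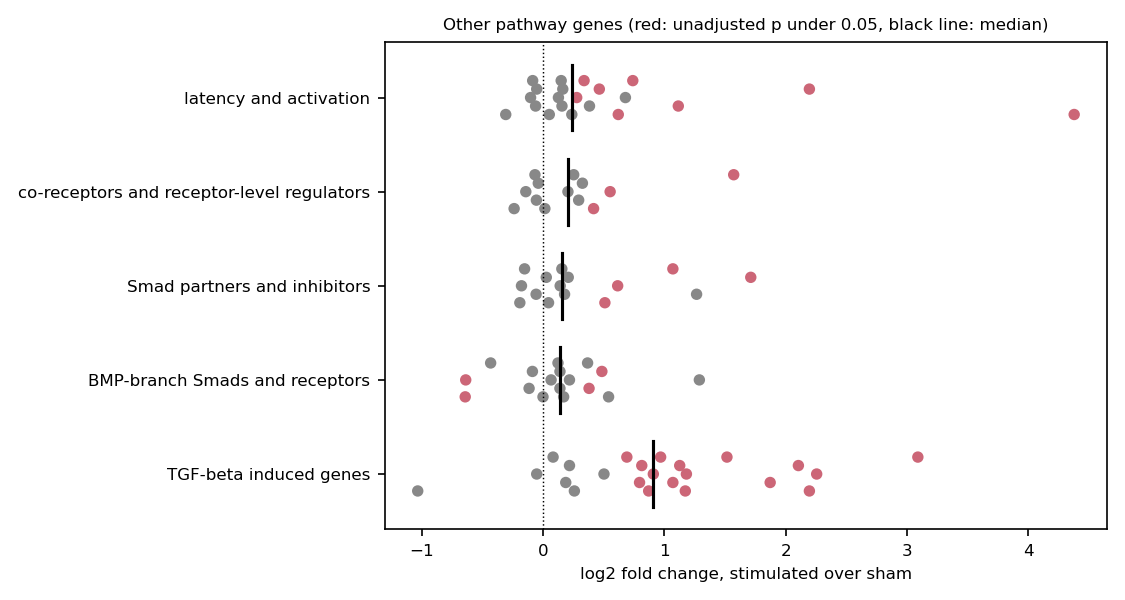
Log2 fold change, stimulated over sham rats (horizontal axis), of the tested genes in each list of other pathway genes (points). Red points had an unadjusted p-value under 0.05 and the black line is the median of a list. The list of TGF-beta induced genes had the highest median of these lists, 0.91, and the other 4 lists had medians between 0.14 and 0.24.

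Among 21 tested genes of ligand latency and activation, 8 had an unadjusted p-value under 0.05, all higher in stimulated rats. The share over all features in that direction was 6.7%. The median log2 fold change was 0.24. Ltbp2, a matrix protein of the same family as Ltbp1, was counted at 0.56 ± 0.212 CPM after sham surgery and 2.59 ± 1.77 CPM after stimulation (SD, n = 5 each), and its log2 fold change was 2.20 (SE 0.484). It had only 6 to 20 reads per sham rat, and rat 8 lay within the sham range at 0.702 CPM. The proteases Mmp9 and Mmp14, both able to release latent ligand, had log2 fold changes of 4.38 ± 0.915 and 0.74 ± 0.191 (± SE). Mmp9 had levels of 1.86, 20.4, 0.894, 17.5 and 56.9 CPM in rats 6 to 10 beside 0.175 to 1.32 CPM in the sham group, so that rat 8 lay within the sham range. Its reads numbered only 3 to 32 per sham rat. Without rat 10 its log2 fold change was 3.45 (SE 0.78). Plat, tissue plasminogen activator and the most counted gene of the list, was counted at 44.9 ± 3.21 CPM after sham surgery and 97.2 ± 46.7 CPM after stimulation, with each stimulated rat above every sham rat, a separation in that direction found for 0.695% of all features. The adjusted p-value of edgeR was 0.376 for each of these 4 genes.

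Among 13 co-receptors and receptor-level regulators, 3 had an unadjusted p-value under 0.05, all higher, beside 6.7% of all features. They were Lrg1, a secreted modulator of TGF-beta signalling in endothelium, the proteoglycan Bgn and the endothelial co-receptor Eng, with log2 fold changes of 1.57 ± 0.427, 0.55 ± 0.176 and 0.42 ± 0.173 (± SE). Fkbp1a, which holds the type I receptor inactive and was the most counted of the list, had a log2 fold change of 0.21 (SE 0.101). Eng had an unadjusted p of 0.05 or more when sham rat 1, sham rat 5 or stimulated rat 10 was left out, with a log2 fold change of 0.20 (SE 0.112) without rat 10. The median of this list was 0.21.

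Among 15 Smad partners and inhibitors, 4 had an unadjusted p-value under 0.05, all higher, beside 6.7% of all features. Pmepa1, an inducible inhibitor of Smad2 and Smad3 activation, was counted at 28.7 ± 2.96 CPM after sham surgery and 60.2 ± 31.5 CPM after stimulation (SD, n = 5 each), and its log2 fold change was 1.07 (SE 0.307, edgeR adjusted p = 0.38). Its levels in rats 7, 9 and 10 were above the sham range of 24.7 to 32.7 CPM. Rat 6 was below that range at 23.03 CPM and rat 8 inside it at 32.6 CPM. The transcription factors Runx1, Sp1 and Tgif2 had log2 fold changes of 1.71 ± 0.54, 0.51 ± 0.154 and 0.62 ± 0.25 (± SE). For Sp1 each stimulated rat was above every sham rat, as was the case for 0.695% of all features. Runx1 had only 12 to 21 reads per sham rat. Its level was above the sham range in rats 7, 9 and 10, below it in rat 6 and inside it in rat 8. For Tgif2 the unadjusted p was 0.05 or more without sham rat 1, sham rat 4 or stimulated rat 9, and without rat 9 its log2 fold change was 0.39 (SE 0.226). The deubiquitinase Usp9x, the most counted of the list, had a log2 fold change of 0.16 (SE 0.0863), and the median was 0.16.

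The bone morphogenetic protein branch uses the same Smad4 with other transducers. Of its 17 tested genes, 2 were higher and 2 lower at an unadjusted p-value under 0.05, beside 6.7% and 3.16% of all features. The median log2 fold change was 0.14. The higher genes were the transducer Smad1 at 0.38 (SE 0.136) and the target gene Id1 at 0.49 (SE 0.198). Id1 had an unadjusted p of 0.05 or more in 6 of the 10 fits without 1 rat (sham rats 1, 3, 4 and 5 and stimulated rats 7 and 10), with a lowest log2 fold change of 0.36 (SE 0.196). The lower ones were the extracellular antagonists Nog, with 11.4 ± 1.12 CPM after sham surgery and 7.34 ± 2.71 CPM after stimulation (SD, n = 5 each), and Chrd, with 24.3 ± 3.68 and 15.6 ± 6.23 CPM, at log2 fold changes of -0.64 ± 0.22 and -0.64 ± 0.239 (± SE). Id3, the most counted of the list, had a log2 fold change of -0.09 (SE 0.181).

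Among 23 tested genes that TGF-beta is known to induce in various cells, 16 had an unadjusted p-value under 0.05, all higher in stimulated rats. The share over all features in that direction was 6.7%, and the count was 11 to 16 in the alternatives. Ltbp2, Pmepa1 and Itgb5 are also in lists above, Junb is in the immediate early list and Acta2, Col1a1 and Col1a2 in the mural cell list. The median log2 fold change was 0.91. Among the cell type and immediate early lists, only the immediate early genes had a higher median, 1.07. In that list 10 of 12 genes were higher at an unadjusted p-value under 0.05 (edgeR quasi-likelihood test). The lowest p-values were those of Fn1, Cdkn1a, Ltbp2 and Klf10. Fn1, fibronectin, was counted at 25.5 ± 3.24 CPM after sham surgery and 49.9 ± 19.7 CPM after stimulation (SD, n = 5 each), and its log2 fold change was 0.97 (SE 0.21). Cdkn1a, a cell cycle inhibitor, and Klf10, a TGF-beta inducible transcription factor, had log2 fold changes of 2.11 ± 0.463 and 1.87 ± 0.487 (± SE). Klf10 had levels of 27.7, 95.2, 21.8, 211 and 58 CPM in rats 6 to 10 beside 18.3 to 28.1 CPM in the sham group, with rats 6 and 8 inside that range. Without rat 9 its log2 fold change was 1.17 (SE 0.34). The integrin Itgb5, the most counted of the list, had a log2 fold change of -0.05 (SE 0.0926). A further 2 genes were named after their values were seen, Tgfbi and Ccn2, which are widely used as readouts of the pathway. Tgfbi had a log2 fold change of 1.17 (SE 0.393), or 0.62 (SE 0.274) without rat 7, and Ccn2 was counted at 10.4 ± 1.81 CPM after sham surgery and 11.04 ± 4.51 CPM after stimulation with a log2 fold change of 0.08 (SE 0.247). For every gene of this list the adjusted p-value of edgeR's quasi-likelihood test was 0.376 or higher.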

How the data were processed

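Messenger RNA of 5 sham and 5 stimulated rats was selected on oligo(dT) beads and sequenced in single reads of 36 cycles. The authors aligned reads with BWA to the rn4 build and deposited raw counts per RefSeq transcript, without normalization. How reads shared by transcripts were counted was not given in the sources used here. Columns were matched to rats by number and groups were taken from the treatment label. Symbols came from the RefSeq gene table of GRCr8, and 12970 of the 22447 tested features had one.

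Unaligned reads, a row of their own, were left out of library sizes, and features with a summed count under the 30th percentile (46 counts) were left out. Stimulated and sham rats were compared by edgeR 4.0.16 in R 4.3.3 (quasi-likelihood test), with TMM factors and default settings, and p-values were adjusted over the 22447 features by the Benjamini-Hochberg method. This script was tested on simulated data. CPM and log2 CPM (prior count 2) used TMM-scaled library sizes. The SE of a log2 fold change was taken from the F statistic, and 95% intervals from the t distribution. With 5 rats a group, p-values set the difference between groups against the spread between rats. That spread was estimated for both groups together, with information shared across features. Numbers were handled with python 3.11.15.

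The genes and lists were chosen with earlier results of these data known. Named genes were the 10 genes, in each other list up to 4 genes of lowest p and the most counted gene, and for each of the 10 genes the 3 most correlated features, of which those of Tgfbr2 are not reported here. Alternatives were other scaling factors, filters and tests (DESeq2 1.42.0 without independent filtering, limma-voom with limma 3.58.1, the likelihood ratio and exact tests of edgeR, adjusted deviances), summed rows of a symbol, and the omission of each rat.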

Additional observations from a re-analysis of the deposited data

Results flagged for a closer look

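The distance from the highest or lowest of 5 rats to the next rat was set against the range of its group, for the 10 genes and 9 marker lists. The gap exceeded Dixon's critical value of 0.71 in 3 of 38 groups of values, where chance alone gives about 1 in 20, or 1.9 groups.

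Smad7 in stimulated rat 9 was counted at 69.83 CPM, where the other stimulated rats had 13.1 to 27.1 CPM, and the gap took 0.753 of the range. Smad2 in stimulated rat 7 was counted at 19.22 CPM against 14.8 to 15.2 CPM in the other stimulated rats, with a gap of 0.922 of the range. Tgfb1 in sham rat 2 was counted at 14.81 CPM against 8.34 to 10.05 CPM in the other sham rats, with a gap of 0.736 of the range. Without sham rat 2, the log2 fold change of Tgfb1 was 0.91 (SE 0.285), and without stimulated rat 9 that of Smad7 was 0.45 (SE 0.174).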

How the results depend on the processing

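In each of 21 alternatives, 0 of the 10 genes had an adjusted p-value under 0.05. The genes with an unadjusted p-value under 0.05 were Tgfb1 and Smad7 in all alternatives except the one without stimulated rat 10, which left Smad7 alone, a range of 1 to 2 over the fits without 1 rat. The log2 fold change of Tgfb1 ranged from 0.49 to 0.93 and that of Smad7 from 0.45 to 1.20. The adjusted p-values of these genes ranged from 0.115 to 0.661 and from 0.122 to 0.661. For genes of the other lists, the omission of each rat was chosen after seeing the data. Among the named ones, Id3 was at 0.04 without rat 7 and Ccn2 at -0.01 without rat 1 and -0.14 without rat 10, on the other side of 0. Signs held in all alternatives for 7 of the 10 members of the family. The value of Tgfbr2 was -0.0039 with upper quartile factors, and over the fits without 1 rat the log2 fold change ranged from -0.15 to 0.0832 for Tgfbr2, from -0.15 to 0.0003 for Tgfbr1 and from -0.0304 to 0.13 for Smad4.

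Over all features, the count at an adjusted p-value under 0.05 was 0 in the quasi-likelihood test, 31 in DESeq2, 90 in edgeR's exact test and 119 in its likelihood ratio test. Of the 86 other pathway genes, 4, 7 and 7 were among them, alternatives applied to this count after seeing the data. The cause of these differences between tests was not tested. The count of features with an unadjusted p-value under 0.05 lay between 1657 and 3145, beside 2214. No paired analysis was possible because each rat belongs to 1 group and has a number of its own. Ltbp1 had 14 to 66 reads per rat, and the share of depth in its error was not tested.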
